A study of Mus musculus with 10 samples.

Results

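Genes of the cell cycle and of DNA replication were followed in activated mouse CD4+ T cells that differed, by their labels, in whether the cells carried working Foxp3, had switched on the Foxp3 promoter, or had received a Foxp3 virus. The set listed 48 genes, and 47 of them had a probe set annotated to that symbol alone. Ccnb1, which encodes cyclin B1, had none and was dropped. Where a gene had several probe sets, the probe set with the highest mean log2(intensity + 16) over the 10 arrays stood for it. All 47 passed the filter on low values, which kept genes above the array's median on at least 2 arrays, so they were 47 of 11319 tested genes out of 18194 genes with a probe set. By role, 15 act in S phase and DNA replication, 16 in G2 and mitosis, 9 in G1 and the entry to S phase, 3 inhibit cyclin-dependent kinases (CDKs), and 4 are transcription factors of the cycle.

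The study measured 10 Affymetrix mouse expression arrays, 2 in each of 5 groups, made from total RNA of splenic T cells that had been stimulated through CD3 and CD28, given the retroviral vector pGCSamIN and sorted on its NGFR marker. In DEREG mice the Foxp3 promoter drives a GFP reporter, so that GFP marks cells using the promoter of this master regulator of regulatory T cells (Treg). The strain field gave DEREG on Balb/c for all 10 arrays, and the abbreviation D_S in the sample descriptions was read as DEREG/Scurfy, a strain whose Foxp3 gene is mutated. Whether the 2 arrays of a group stem from different mice or cultures was not stated, and the p-values therefore reflect the spread among arrays alone, which may be technical. The groups were GFP+ DEREG/Scurfy cells given the Foxp3 virus (scurfy Foxp3), GFP+ DEREG/Scurfy cells given the empty virus (scurfy mock), GFP+ DEREG cells given the empty virus (Treg), GFP- conventional DEREG cells given the Foxp3 virus (Tconv Foxp3) and GFP- conventional DEREG cells given the empty virus (Tconv mock). Sex and age of the mice were not used here.

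The Foxp3 probe set went against the labels of the Foxp3 virus. Its intensity was 948 and 691 on the arrays labelled scurfy Foxp3, against 1188 and 1114 on scurfy mock arrays. It was 18.04 and 18.9 on the arrays labelled Tconv Foxp3, against 53.9 and 35.9 on Tconv mock arrays, and 2130 and 3128 on Treg arrays. Neither Foxp3-labelled group was therefore higher than its mock group, the place of the probe set in the transcript or the vector was not known, and every direction below is a direction by label. All 6 markers of CD4 T cells were above the array median on every array. Median intensity per array ran from 18.8 to 36.5, its 75th percentile from 124 to 191, and the correlation of replicates across genes from 0.921 to 0.976, where genes are not independent replicates. The ratio of 3' to 5' signal of Gapdh ran from 1.75 to 2.24, with the highest value on scurfy Foxp3 array 2. That of Actb ran from 0.917 to 0.986, with the highest value on Tconv mock array 1.

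A dividing T cell passes through G1, where D and E cyclins with their kinases inactivate Rb proteins and release E2F transcription factors, and then copies its DNA in S phase and separates the copies in mitosis. E2F factors are known to drive the genes of replication, whereas mitotic genes are switched on later by B-Myb (Mybl2) and FoxM1 through promoter elements called CHR and through CCAAT boxes bound by NF-Y. CDK inhibitors such as p27 and p18 hold the kinases back. Treg are described as slow to divide on stimulation in culture, while in the animal they cycle readily.

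The promoters of 5 members, 1 of G1, 2 of S phase and 2 of mitosis, are shown with the letters that were then counted over all windows. The windows run from 250 bases before to 50 bases after the start of transcription in RefSeq on GRCm38.p6, each 300 bases long, and are printed in the direction of the gene. Capitals mark matches on either strand to TTTCCCGC, TTTGGCGC or TTTCGCGC (E2F), TTTGAA or TTTAAA (CHR), and CCAAT, and overlapping matches appear as 1 run. Cdk2 encodes the kinase of S phase entry and had the smallest p of the set over the 5 groups, Mcm5 and Mcm6 encode subunits of the replicative helicase, Ccnb2 encodes a mitotic cyclin, and Mki67 encodes the proliferation marker Ki-67.
Cdk2, chr10:128705002-128705301, minus strand: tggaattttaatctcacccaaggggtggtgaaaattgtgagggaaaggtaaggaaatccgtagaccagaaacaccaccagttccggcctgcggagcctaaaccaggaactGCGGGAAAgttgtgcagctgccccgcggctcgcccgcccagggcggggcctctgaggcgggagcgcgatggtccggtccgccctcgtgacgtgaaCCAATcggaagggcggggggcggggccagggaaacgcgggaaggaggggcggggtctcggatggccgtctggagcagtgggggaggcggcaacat
Mcm5, chr8:75109259-75109558, plus strand: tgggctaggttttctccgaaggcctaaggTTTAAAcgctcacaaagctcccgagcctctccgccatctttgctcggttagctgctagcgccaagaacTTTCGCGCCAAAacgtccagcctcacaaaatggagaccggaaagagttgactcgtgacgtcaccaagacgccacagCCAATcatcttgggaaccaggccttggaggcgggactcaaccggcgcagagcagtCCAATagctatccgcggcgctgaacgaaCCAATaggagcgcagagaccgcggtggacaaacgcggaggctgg
Mcm6, chr1:128359656-128359955, minus strand: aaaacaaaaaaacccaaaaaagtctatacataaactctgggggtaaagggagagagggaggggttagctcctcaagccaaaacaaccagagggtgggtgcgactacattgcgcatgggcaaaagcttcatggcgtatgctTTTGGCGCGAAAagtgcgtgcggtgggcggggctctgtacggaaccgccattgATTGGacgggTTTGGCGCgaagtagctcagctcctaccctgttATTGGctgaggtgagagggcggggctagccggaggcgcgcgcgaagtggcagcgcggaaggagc
Ccnb2, chr9:70421505-70421804, minus strand: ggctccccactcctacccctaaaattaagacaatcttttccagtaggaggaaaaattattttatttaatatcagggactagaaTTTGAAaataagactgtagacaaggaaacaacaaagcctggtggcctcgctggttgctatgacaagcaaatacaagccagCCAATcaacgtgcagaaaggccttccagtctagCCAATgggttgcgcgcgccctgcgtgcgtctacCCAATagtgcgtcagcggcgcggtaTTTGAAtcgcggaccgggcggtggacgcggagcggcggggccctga
Mki67, chr7:135716330-135716629, minus strand: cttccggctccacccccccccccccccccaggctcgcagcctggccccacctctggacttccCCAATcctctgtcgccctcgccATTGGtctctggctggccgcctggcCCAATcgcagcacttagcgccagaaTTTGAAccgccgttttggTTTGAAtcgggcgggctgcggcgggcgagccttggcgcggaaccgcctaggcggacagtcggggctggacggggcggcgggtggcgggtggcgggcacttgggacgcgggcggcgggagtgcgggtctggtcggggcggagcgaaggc

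Windows were found for 40 of the 48 listed genes. Those of mitosis genes include the dropped Ccnb1 and lack Ccna2, Cdc25c and Aurkb. The 15 windows of S phase genes cover 14 genes, with Mcm7 having more than 1 window and Mcm4 none. E2F letters were in 6 of 15 windows of S phase genes (40%) and in 1 of 14 windows of mitosis genes (7.14%), beside 1.84% of all 32851 windows. CHR letters were in 12 of 14 windows of mitosis genes (85.7%) and in 5 of 15 of S phase genes (33.3%), beside 27.6% of all windows. CCAAT was in 13 of 14 (92.9%) and in 11 of 15 (73.3%), beside 37.4% of all. The pair of CHR and CCAAT letters was in 11 of 14 windows of mitosis genes (78.6%), in 4 of 15 of S phase genes (26.7%) and in 10.7% of all. TTTAAA reads the same on both strands, and matches of E2F letters overlap each other in Mcm5 and Mcm6. In Mcm7 an E2F match overlaps CCAAT. A match describes the letters in the window and is no evidence that a factor was bound there. No window lay in a peak or other measurement of these data.

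No member was called, at an adjusted p under 0.05 by limma with Benjamini-Hochberg adjustment over all 11319 genes, in any of the comparisons or in the F test over the 5 groups. The F test called 216 genes in all, 1.91% of those tested. At an unadjusted p under 0.05 it found 4 of the 47 members (8.51%), against 17.8% of all genes, so the share among the members was below the background. These 4 were Cdk2 (adjusted p = 0.196), the cyclin E2 gene Ccne2 (0.217), Cdc45, a helicase component (0.264), and Cdkn1b, which encodes the inhibitor p27 (0.271). None of the 16 mitosis members reached that level.

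**Figure D1:**
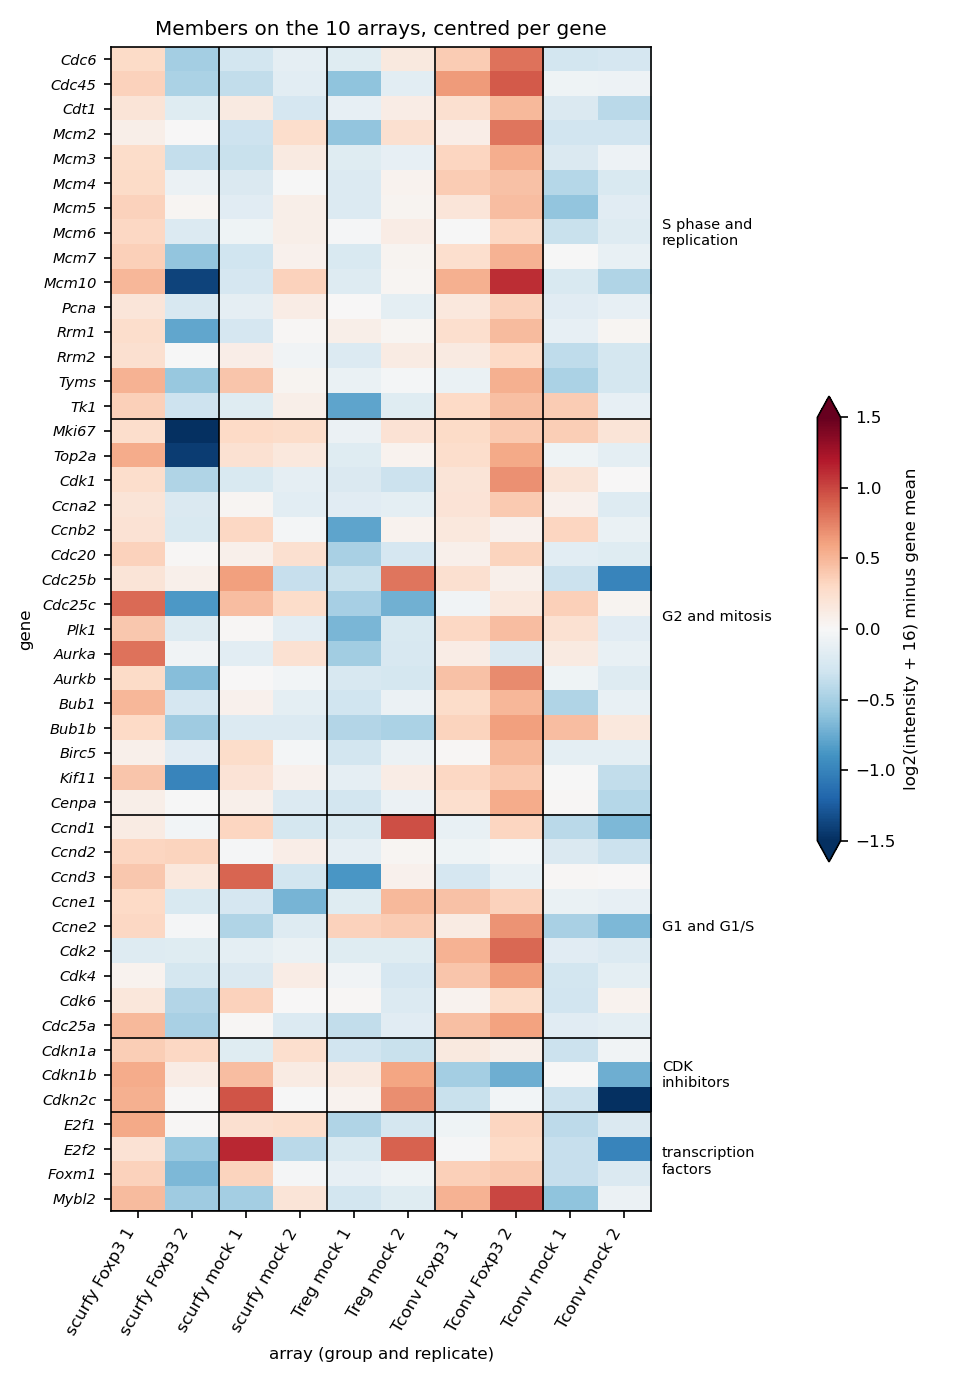
Level of the 47 members (rows, grouped by role) on the 10 arrays (columns, by group and replicate) as log2(intensity + 16) minus the gene's own mean over the arrays, in colour from blue (low) to red (high). Tconv Foxp3 array 2 is the highest array for all 15 S phase members, and scurfy Foxp3 array 2 is the lowest for 18 of the 47.

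Array 2 of the Tconv Foxp3 group had the highest levels of the replication genes. It was the highest of the 10 for 15 of 15 S phase members, for 9 of 16 mitosis members and for 30 of 47 members in all. How many of all genes were highest on that array was not counted. With each level centred on the gene's own mean, the S phase median was 0.49 on that array, beside 0.15 over all genes. It was 0.25 on Tconv Foxp3 array 1, beside 0.05 over all genes. On scurfy Foxp3 array 1 it was 0.29, beside 0.24 over all genes. Both Tconv Foxp3 arrays lay above the other 8 for 13 members (Cdc6, Cdc45, Cdt1, Mcm3, Mcm4, Mcm10, Ccna2, Aurkb, Cenpa, Cdk2, Cdk4, Foxm1 and Mybl2), where 12.4% of all genes did so. No member lay below the other 8 there, where 3.42% of all genes did. The plot of centred levels shows this block of members and also the low second scurfy Foxp3 array.

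The comparison of Tconv Foxp3 with Tconv mock asked what the Foxp3 virus, by label, did in conventional T cells. All 15 S phase members were on the positive side, with a median log2 difference of 0.59 beside 0.26 over all genes, and 14 of 15 were above that all-gene median. Of the 16 mitosis members, 14 were positive, with a median of 0.36. Of all genes 72.4% were positive. None was called, where 10 of all genes (0.0883%) were. Both Tconv Foxp3 arrays were above both Tconv mock arrays for 14 of 15 S phase members, the exception being Tk1, for 11 of 16 mitosis members and for 38 of 47 in all. That holds for 47.6% of all genes, and the arrays themselves differed in level, while both arrays were lower for 1 member, Ccnd3, and for 11.6% of all genes. In bulk RNA, more cells in S phase and more of these transcripts per cell cannot be told apart.

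That shift in array level was removed by 2 other scalings. After quantile normalization the median was 0.39 for S phase members, 0.09 for mitosis members and 0.01 for all genes. At a common 75th percentile it was 0.33 for S phase members, 0.05 for mitosis members and -0.02 for all genes. S phase members without overlap were 13 of 15 after quantile normalization, where 26.9% of all genes were higher, and 10 of 15 at the common percentile, where 25.2% were. Mitosis members without overlap were 7 of 16 higher and 3 lower after quantile normalization, where 26.9% and 25.7% of all genes were. At the common percentile 6 were higher and 4 lower, where 25.2% and 27.4% of all genes were. Of the S phase members 14 of 15 were positive under each of these scalings, and of the mitosis members 11 of 16, where 50.6% of all genes were positive after quantile normalization and 48.4% at the common percentile.

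The factors that load the helicase at origins were each higher by label. Cdc6 had 864 and 1177 in Tconv Foxp3, against 544 and 552 in Tconv mock, and Cdt1 had 2061 and 2459, against 1499 and 1319. The differences were 0.86 (SE 0.32, adjusted p = 0.31) for Cdc6 and 0.67 (SE 0.28, adjusted p = 0.336) for Cdt1. Neither passed the test, and in both genes the Tconv Foxp3 arrays lay above all other groups. Cdc45, which activates the helicase, had 298 and 366 in Tconv Foxp3, against 178 and 175 in Tconv mock, a difference of 0.85 (SE 0.33, adjusted p = 0.321). The Tconv mock pair was much closer together than the 2 Tconv Foxp3 arrays.

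The helicase subunits Mcm2 to Mcm7 lay on the same side, most of them by smaller amounts. Mcm4 had 3005 and 3132 in Tconv Foxp3, against 1711 and 1968 in Tconv mock, a difference of 0.74 (SE 0.26, adjusted p = 0.301), and Mcm5 had 3639 and 4417, against 2113 and 2830, a difference of 0.71 (SE 0.28, adjusted p = 0.328). The others were Mcm2 at 0.74, Mcm3 at 0.58, Mcm7 at 0.44 and Mcm6 at 0.42, all without overlap of the 2 groups and none called. Mcm10, which binds the helicase at the fork, had the widest difference of the set, 1.16 (SE 0.54, adjusted p = 0.379). It had 483 and 729 in Tconv Foxp3, against 279 and 237 in Tconv mock, and its large SE came with a wide split between the scurfy Foxp3 arrays described below.

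The remaining S phase members supply the fork and its nucleotides. Pcna, the sliding clamp, was higher by 0.40 (SE 0.26), the ribonucleotide reductase genes Rrm1 and Rrm2 by 0.40 (SE 0.35) and 0.54 (SE 0.26), and the thymidylate synthase gene Tyms by 0.59 (SE 0.39). Thymidine kinase, Tk1, had 658 and 736 in Tconv Foxp3, against 703 and 490 in Tconv mock, so the groups overlapped (0.24, SE 0.34). Tyms is uncertain, because another probe set of the gene is shared with the pseudogene Tyms-ps and was left out. That shared probe set had 1689 and 2054 in Tconv Foxp3, against 1190 and 1126 in Tconv mock. Among 12 S phase members with several detected probe sets, all probe sets were on the positive side for 11, the exception being Tyms, and 36 of 37 probe sets were positive.

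**Figure D2:**
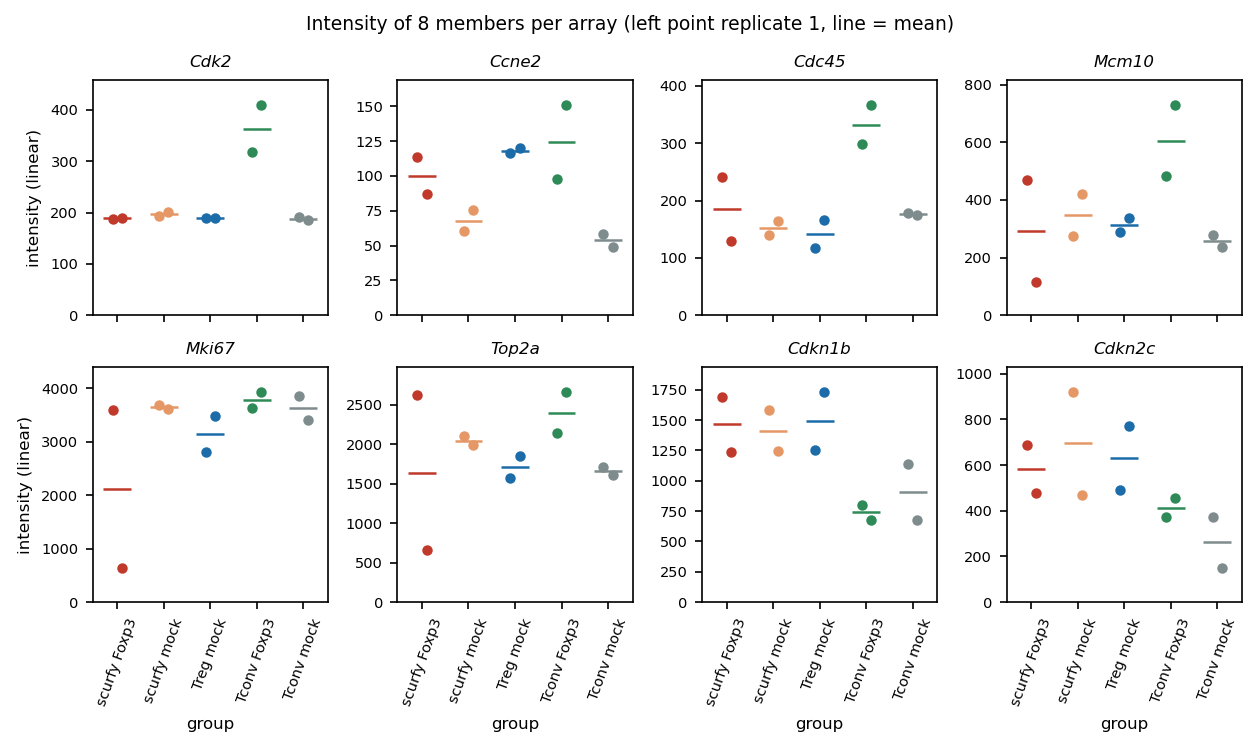
Intensity per array, on a linear axis starting at 0, of 8 members in the 5 groups, with a line at each group mean (n = 2). Cdk2, Cdc45 and Mcm10 are highest on both Tconv Foxp3 arrays, and Mki67, Top2a and Mcm10 have their lowest value on scurfy Foxp3 array 2.

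Cdk2 set the Tconv Foxp3 arrays apart most plainly. It had 318 and 409 in Tconv Foxp3, against 191 and 186 in Tconv mock. The other 6 arrays lay between 187 and 202, namely 187 and 190 on scurfy Foxp3 arrays, 194 and 202 on scurfy mock arrays and 189 on each Treg array. The difference from Tconv mock was 0.88 (SE 0.24, adjusted p = 0.21), and it was 0.54 after quantile normalization and 0.58 at a common 75th percentile. The call failed in each case, with adjusted p of 0.456 and 0.423 under those scalings. Ccne2, its cyclin partner, had 97.5 and 151 in Tconv Foxp3, against 58.4 and 49.3 in Tconv mock (0.98, SE 0.29, adjusted p = 0.224).

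Other G1 genes were also higher by label without a call. Cdk4, a partner of D cyclins, had 1714 and 1985 in Tconv Foxp3, against 1060 and 1157 in Tconv mock (0.73, SE 0.26, adjusted p = 0.301). The phosphatase gene Cdc25a, which activates Cdk2, was higher by 0.68 (SE 0.33), the cyclin gene Ccne1 by 0.50 (SE 0.32), the kinase gene Cdk6 by 0.28 (SE 0.30), and the D cyclin genes Ccnd1 and Ccnd2 by 0.65 (SE 0.41) and 0.22 (SE 0.24). Ccnd3, another D cyclin gene, was on the other side with 574 and 635 in Tconv Foxp3, against 696 and 693 in Tconv mock (-0.20, SE 0.42). At an unadjusted p under 0.05, 9 of 47 members were higher and none lower, where 11.2% of all genes were higher: Cdk2, Ccne2, Mcm4, Cdk4, Mybl2, Cdc6, Cdc45, Mcm5 and Cdt1. Of these 9, 5 were S phase members, 3 were G1 members and none was a mitosis member.

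The 4 transcription factors were all positive. Mybl2 had 178 and 255 in Tconv Foxp3, against 73.5 and 112 in Tconv mock (1.10, SE 0.40, adjusted p = 0.302). Foxm1 had 291 and 299, against 173 and 191 (0.65, SE 0.34), and the activators E2f1 and E2f2 were higher by 0.43 (SE 0.29) and 0.81 (SE 0.56). Of the CDK inhibitors, the p27 gene Cdkn1b had 800 and 679 in Tconv Foxp3, against 1140 and 679 in Tconv mock (-0.25, SE 0.34). Another probe set of Cdkn1b lay the other way, with 375 and 259, against 336 and 208. The groups overlapped in both probe sets. Cdkn2c, which encodes p18, was higher by 0.74 (SE 0.47) and the p21 gene Cdkn1a by 0.31 (SE 0.26), with overlap for Cdkn2c.

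In mitosis genes the differences were uneven. Aurkb, a kinase of chromosome segregation, had 974 and 1178 in Tconv Foxp3, against 686 and 622 in Tconv mock (0.70, SE 0.32, adjusted p = 0.378), and the centromere histone gene Cenpa had 459 and 573, against 388 and 282 (0.61, SE 0.27). Bub1, a spindle checkpoint kinase, was higher by 0.67, the motor gene Kif11 by 0.54, the topoisomerase gene Top2a by 0.52, the survivin gene Birc5 by 0.40, the cyclin A2 gene Ccna2, the activator of the anaphase complex Cdc20 and the kinase gene Plk1 by 0.36 each, and Cdk1 by 0.34. Mki67 had 3638 and 3928 in Tconv Foxp3, against 3859 and 3414 in Tconv mock (0.06, SE 0.63). Ccnb2 (0.00), Aurka (-0.06), Cdc25c (-0.14) and Bub1b (0.16) also overlapped, and the phosphatase gene Cdc25b was at 0.81 (SE 0.45).

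Levels of other cell types differed along with this comparison. The summed intensity of the 8 measured B cell markers of 9 listed was 307 and 498 in Tconv Foxp3, against 59.7 and 55.7 in Tconv mock, with 3 and 5 markers above the array median, against 0 and 0. Over all arrays that sum ran from 55.7 to 1769, with the highest values on the scurfy Foxp3 arrays, and the lowest on the Tconv mock arrays. Cd79a, part of the B cell receptor, had 52.8 and 89.2 in Tconv Foxp3, against 16.7 and 13.1 in Tconv mock, and Ms4a1, which encodes CD20, had 78.1 and 141, against 6.53 and 5.58. Of the myeloid markers, 7 of 8 were measured and summed to 349 and 302 on the scurfy Foxp3 arrays and to between 49.5 and 123 on the other 8. Most of that sum came from Fcer1g (127 and 118) and Cybb (151 and 125), with Lyz2 at 27.8 and 17.6. Csf1r, Itgam, Cd14 and Adgre1 were lower on both scurfy Foxp3 arrays than on Tconv mock array 1. The part of other cell types in the members' values was not tested. Without Tconv Foxp3 array 2 the S phase median was 0.46 beside 0.20 over all genes, and without array 1 it was 0.77 beside 0.32.

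**Figure D3:**
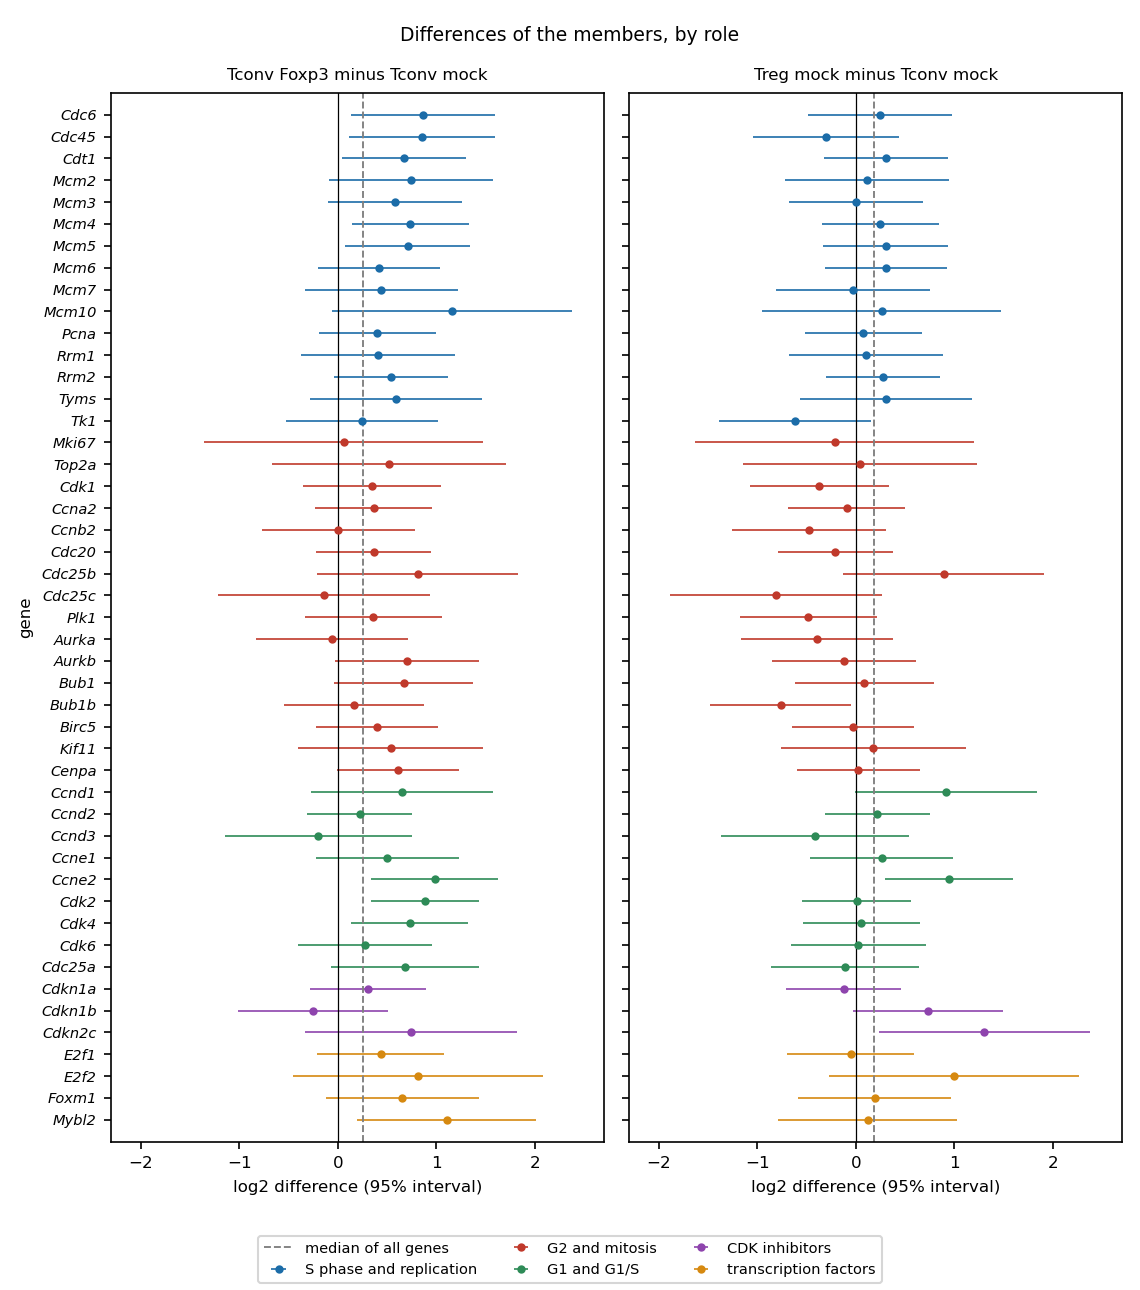
Log2 difference with its 95% interval for each of the 47 members, coloured by role, in Tconv Foxp3 minus Tconv mock (left) and Treg minus Tconv mock (right), with a dashed line at the median of all genes. All 15 S phase members lie right of 0 on the left, and 11 of 16 mitosis members lie left of 0 on the right.

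Treg were compared with Tconv mock to ask how natural regulatory cells differed after the same activation and empty virus. This comparison shares the Tconv mock arrays with the previous one. Mitosis members were on the low side in Treg, with 11 of 16 negative and a median of -0.17. All genes had a median of 0.19, and 64.8% of them were positive. The Gapdh 3'/5' ratio, a sign of RNA quality, was 2.06 and 2.11 on Treg arrays, against 1.86 and 1.89 on Tconv mock arrays. The Actb ratio lay the other way, at 0.937 and 0.917 on Treg arrays, against 0.986 and 0.979. The part of RNA quality in these values was not tested. Both Treg arrays were lower than both Tconv mock arrays for 7 of 16 mitosis members, where 16.4% of all genes were, and higher for 0 of 16, where 35.2% were. S phase members had a median of 0.25 (11 of 15 positive), with 7 of 15 higher without overlap and 2 lower. None of the 47 was called, where 123 genes (1.09%) were.

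The mitosis median stayed below that of all genes under the other scalings. Mitosis members had a median of -0.27 after quantile normalization (14 of 16 negative) and -0.51 at a common 75th percentile (15 of 16 negative), beside -0.05 and -0.11 over all genes. Of all genes 45.6% and 41.2% were positive. Mitosis members lower without overlap were 10 of 16 and 13 of 16 under those scalings, where 30.5% and 35.4% of all genes were. The S phase median was 0.05 after quantile normalization and -0.10 at the common percentile. After quantile normalization 6 of 15 S phase members were higher without overlap and 2 lower, where 24.4% and 30.5% of all genes were. At the common percentile 0 of 15 were higher and 4 lower, where 21.2% and 35.4% were. Several probe sets of a gene disagreed in direction for 9 of 12 S phase members here, and for 3 of 9 mitosis members.

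Cdc20, Plk1 and Aurka, which drive mitotic entry and exit, were the members with both Treg arrays below the other 8, where 2.76% of all genes were below and no member was above (2.78% of all genes). Cdc20 had 648 and 764 in Treg, against 823 and 808 in Tconv mock (-0.21, SE 0.26), and Plk1 had 123 and 174, against 244 and 182 (-0.48, SE 0.31). Aurka had 367 and 449 in Treg, against 589 and 493 in Tconv mock (-0.39, SE 0.34). Bub1b, the checkpoint protein BubR1, was the mitosis member with the smallest p, at 299 and 293 in Treg, against 574 and 461 in Tconv mock. The Treg values nearly coincided and lay below those of every array but scurfy Foxp3 array 2. The difference was -0.76 (SE 0.32, adjusted p = 0.295), -0.999 after quantile normalization (adjusted p = 0.0874) and -1.10 at the common percentile (adjusted p = 0.0706). Cdc25c (-0.81), Cdk1 (-0.37) and Aurkb (-0.12) were the others lower without overlap, whereas Mki67 had 2811 and 3471 in Treg, against 3859 and 3414 in Tconv mock (-0.22, SE 0.63).

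The largest positive values in Treg came from several roles, in the order Cdkn2c, E2f2, Ccne2, Ccnd1, Cdc25b and Cdkn1b. Ccne2 had 116 and 120 in Treg, against 58.4 and 49.3 in Tconv mock (0.94, SE 0.29, adjusted p = 0.157). Cdkn2c had 490 and 771 in Treg, against 374 and 151 in Tconv mock (1.30, SE 0.47, adjusted p = 0.232), and Cdkn1b had 1254 and 1731, against 1140 and 679 (0.73, SE 0.34, adjusted p = 0.342). In both inhibitors the Treg arrays lay above both Tconv mock arrays. Both differences depended on which Tconv mock array was kept. That of Cdkn2c was 0.69 without array 2 and 1.91 without array 1, and that of Cdkn1b was 0.37 without array 2 and 1.10 without array 1. E2f2 had 751 and 1656 in Treg, against 694 and 437 in Tconv mock (1.00, SE 0.56, adjusted p = 0.446), and the difference was 0.44 without Treg array 2 and 1.56 without Treg array 1. Ccnd1 was at 0.91 (SE 0.41, adjusted p = 0.33) without overlap, and Cdc25b at 0.89 (SE 0.45, adjusted p = 0.39) with overlap. Cdkn1a did not share that direction (-0.12, SE 0.26), nor did Tk1, which had 302 and 468 in Treg, against 703 and 490 in Tconv mock (-0.62, SE 0.34).

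Scurfy mock cells were compared with Tconv mock to describe GFP+ cells without working Foxp3, with the strain also differing by the reading of the labels. The S phase median was 0.21 and the mitosis median 0.12, beside 0.22 over all genes. After quantile normalization the mitosis median was -0.14 (11 of 16 negative), beside -0.02 over all genes, and at a common 75th percentile it was -0.19 (13 of 16 negative), beside -0.05. Of all genes 48.4% and 45.4% were positive under these scalings. Mitosis members lower without overlap were 5 of 16 after quantile normalization, where 25% of all genes were, and 8 of 16 at the common percentile, where 27.8% were. Higher without overlap were 1 and 0 of 16, where 21.6% and 19.6% of all genes were. No member was called, where 65 genes (0.574%) were. Both scurfy mock arrays were higher for 18 of 47 members, where 38.8% of all genes were, and lower for 4, where 12.1% were. Cdkn2c had 920 and 469 in scurfy mock, against 374 and 151 in Tconv mock (1.40, SE 0.47, adjusted p = 0.265), and Cdkn1b had 1580 and 1243, against 1140 and 679 (0.66, SE 0.34). Without Tconv mock array 2 the differences were 0.79 for Cdkn2c and 0.29 for Cdkn1b, and without array 1 they were 2.01 and 1.03.

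Tconv mock arrays were the lowest of all for Mcm4, Rrm2, Ccnd1, Ccnd2 and Ccne2, where 11.2% of all genes were below the other 8 and 1.41% above. Ccne1 was the member with both scurfy mock arrays below the other 8, at 258 and 185, against 288 and 283 in Tconv mock, where 1.31% of all genes were below and 1.61% above. Both E cyclin genes were also on the low side in scurfy mock against Treg. Ccne2 had 60.4 and 75.6 in scurfy mock, against 116 and 120 in Treg (-0.68, SE 0.29, adjusted p = 0.594), and Ccne1 had 258 and 185, against 272 and 439 (-0.62, SE 0.32).

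Scurfy mock against Treg compared GFP+ cells without and with working Foxp3. Mitosis members were higher in scurfy mock for 15 of 16, with a median of 0.24, beside 54.1% and 0.04 over all genes. Both scurfy mock arrays were higher for 9 of 16 mitosis members, where 18% of all genes were. None was lower without overlap, where 14.4% of all genes were, and no member was called, where 29 genes (0.256%) were. The mitosis median was 0.15 after quantile normalization and 0.27 at a common 75th percentile, beside 0.03 and 0.06 over all genes. Higher without overlap were 8 and 10 of 16 under those scalings, where 20.8% and 22.3% of all genes were. The Gapdh 3'/5' ratio was 1.75 and 1.85 on the scurfy mock arrays, against 2.06 and 2.11 on the Treg arrays. The Actb ratio was 0.944 and 0.934, against 0.937 and 0.917. The part of RNA quality in these values was not tested. Cdc25c, the phosphatase of mitotic entry, had 292 and 255 in scurfy mock, against 142 and 120 in Treg (0.98, SE 0.48, adjusted p = 0.682), and Cdc20 had 964 and 1087, against 648 and 764 (0.53, SE 0.26, adjusted p = 0.682). E2f1 had 427 and 432 in scurfy mock, against 257 and 295 in Treg (0.61, SE 0.29). This comparison shares the Treg arrays with the comparison of Treg with Tconv mock. S phase members had a median of 0.05, with 2 higher and 1 lower without overlap.

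The arrays labelled scurfy Foxp3 had member medians near those of scurfy mock, with wide gaps between their replicates for some members. The S phase median was 0.06 and the mitosis median 0.01, beside -0.02 over all genes, and no member was called, where 4 genes (0.0353%) were. Both arrays were higher for 4 members (Ccnd2, Ccne1, Ccne2 and Cdkn1a) and lower for 2 (Mki67 and Cdk2), where 14% and 8.84% of all genes were. Array 1 was above array 2 for 45 of 47 members (95.7%), where it was for 78.9% of all genes, and by over 1 log2 unit for 9 members (19.1%), where it was for 14.5%. After quantile normalization array 1 was higher for 35 of 47 members, where it was for 49.3% of all genes, and at a common 75th percentile for 25 of 47, where it was for 44.9%. In the values as deposited the share of such wide gaps was 25% of mitosis members and 20% of S phase members. After quantile normalization it was 10.6% of members, 25% of mitosis members and 6.67% of S phase members, where it was 4.82% of all genes. At the common percentile these shares were 8.51%, 18.8% and 6.67%, where it was 4.55% of all genes.

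Mki67 gave the widest gap, with 3587 and 640 in scurfy Foxp3, against 3691 and 3615 in scurfy mock. Array 1 stood -0.03 from the scurfy mock mean and array 2 stood -2.48 from it on the log2 scale. Top2a had 2622 and 653 in scurfy Foxp3, against 2102 and 1991 in scurfy mock, and Mcm10 had 471 and 116, against 275 and 422. In both genes, by the probe set used, array 1 was above both scurfy mock arrays and array 2 was below them. The other members with such a gap were Cdc25c, Kif11, Tyms, Rrm1, Foxm1 and Mybl2, and array 1 was the higher each time. All 3 Mcm10 probe sets had their lowest value on array 2, whereas Mki67 had only 1 probe set. A weaker probe set of Top2a had 96.1 and 74.5 in scurfy Foxp3, against 129 and 89.3 in scurfy mock. Array 1 thus lay between the scurfy mock arrays there, and array 2 below them.

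The group's medians depended on either array. Without array 2, the S phase median against scurfy mock was 0.38 and the mitosis median 0.30, beside 0.19 over all genes, and without array 1 they were -0.23 and -0.28, beside -0.21. Array 2 had the highest Gapdh 3'/5' ratio (2.24, against 2.03 on array 1 and 1.75 and 1.85 on the scurfy mock arrays) and the highest summed B cell markers (1769, against 809 on array 1 and 86.6 and 367 on the scurfy mock arrays). The Actb 3'/5' ratio was 0.951 on array 2, against 0.927 on array 1 and 0.944 and 0.934 on the scurfy mock arrays. The part of RNA quality or of B cells in the members' values was not tested. Cdkn1a was highest on both scurfy Foxp3 arrays, at 5442 and 5242, against 3720 and 5003 in scurfy mock (0.31, SE 0.26). Ccnd2 was highest there too, at 7420 and 7445, against 5841 and 6336 (0.29, SE 0.24). Among all genes 3.6% were above the other 8 arrays there and 0.901% below.

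Against Treg, the arrays labelled scurfy Foxp3 had a mitosis median of 0.20 and an S phase median of 0.04, beside 0.01 over all genes, and none of the 47 was called, where 20 genes (0.177%) were. Both arrays were higher for 8 members, where 18.7% of all genes were, and lower for 1, Ccne2, where 12.7% were. Cdkn1a had 5442 and 5242 in scurfy Foxp3, against 3455 and 3325 in Treg (0.65, SE 0.26, adjusted p = 0.488), and E2f1 had 538 and 361, against 257 and 295 (0.65, SE 0.29, adjusted p = 0.558). Plk1 (0.56), Aurka (0.77) and Cdc20 (0.55) were higher without overlap and were not called. Without array 2 the mitosis median was 0.56, and without array 1 it was -0.07.

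The effect of the Foxp3 label was then compared between the starting cells, as its log2 difference in scurfy cells minus that in Tconv. It reuses the arrays of both label comparisons and contains the Tconv difference with its sign reversed. The S phase medians of those comparisons were 0.06 in scurfy cells and 0.59 in Tconv. All 15 S phase members were negative, with a median of -0.53, and 15 of 16 mitosis members were, with a median of -0.42. The median over all genes was -0.28, and 30.3% of them were positive. The test called no member and 0 of 11319 genes (0%), while 284 genes were higher and 627 lower at an unadjusted p under 0.05 by limma. Cdk2 had the smallest p among the members (-0.95, SE 0.34, adjusted p = 0.61), and Mcm10 the largest size (-1.65, SE 0.76, adjusted p = 0.623). After quantile normalization the S phase median was -0.27 and that of the mitosis members -0.08, beside 0.01 over all genes. Of the S phase members 14 of 15 were negative under that scaling and at a common 75th percentile. Of the mitosis members 9 and 8 of 16 were negative, where 50.7% and 52% of all genes were positive. The effect of the label was thus not shown to differ between the starting cells for any member.

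**Figure D4:**
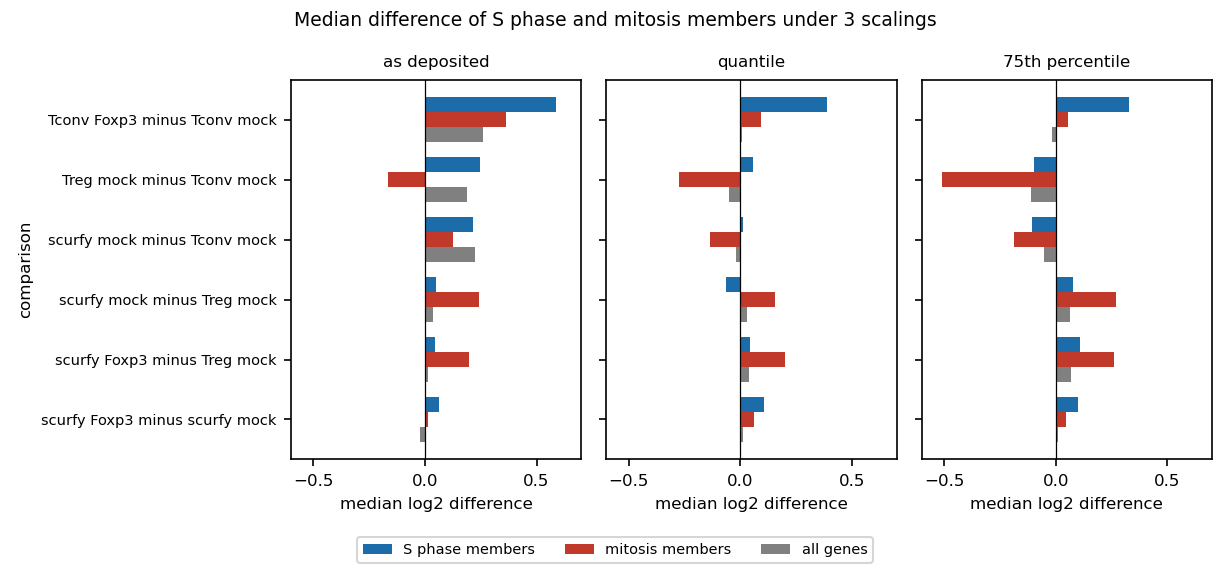
Median log2 difference of the 15 S phase members, the 16 mitosis members and all 11319 genes in 6 comparisons, for the values as deposited, after quantile normalization and at a common 75th percentile. S phase members keep 0.59, 0.39 and 0.33 in Tconv Foxp3 minus Tconv mock, and mitosis members keep -0.17, -0.27 and -0.51 in Treg minus Tconv mock.

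Other genes of the same pathways, listed by function, gave no calls either. In Tconv Foxp3 against Tconv mock 72.4% of all genes were positive. Of 30 further replication genes, 27 were tested, and in Tconv Foxp3 against Tconv mock 25 were positive (median 0.51), with Gins1, part of the helicase complex, at 0.86 (SE 0.29, adjusted p = 0.282), Rfc5, a clamp loader subunit, at 0.88 (SE 0.31, adjusted p = 0.3) and Gmnn, the inhibitor of Cdt1, at 0.71 (SE 0.28, adjusted p = 0.328). Of 30 further mitosis genes, all tested, 25 were positive with a median of 0.26, beside 0.26 over all genes, and Ect2, an exchange factor of cytokinesis, was at 0.85 (SE 0.29, adjusted p = 0.278). Of 20 genes of G1 control and quiescence, 19 were tested. Rb1, the retinoblastoma gene, was at 1.09 (SE 0.33, adjusted p = 0.238) and the checkpoint kinase gene Chek1 at 1.17 (SE 0.36, adjusted p = 0.24).

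In Treg against Tconv mock, the G1 control genes had a median of 0.42, with 17 of 19 positive, beside 0.19 and 64.8% over all genes. The smallest adjusted p of these lists belonged to the CDK inhibitor genes Cdkn2a (1.28, SE 0.28, adjusted p = 0.0719) and Cdkn2b (2.37, SE 0.57, adjusted p = 0.0969), and Btg1, which restrains proliferation, was at 1.03 (SE 0.29, adjusted p = 0.134). In scurfy mock against Tconv mock the median of the G1 control genes was 0.52, beside 0.22 over all genes. Myc, a driver of growth, was at -1.67 (SE 0.37, adjusted p = 0.113) and the Rb family gene Rbl2 at 1.51 (SE 0.40, adjusted p = 0.173). Myc was also lower by label in scurfy mock against Treg (-1.59, SE 0.37, adjusted p = 0.164), again without a call. The further replication genes had a median of -0.10 in Treg against Tconv mock, unlike the S phase members (0.245), with 10 of 27 positive. Both Treg arrays were higher for 6 of these and lower for 8, where 35.2% and 16.4% of all genes were. The further mitosis genes had a median of 0.01 there, with 15 of 30 positive, beside 0.19 and 64.8% over all genes. Of these mitosis genes, 3 were higher without overlap and 6 lower. In scurfy mock against Treg their median was 0.27, with 26 of 30 positive, beside 0.04 and 54.1% over all genes.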

How the data were processed

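RNA from 10 samples of sorted mouse CD4+ T cells was measured on Affymetrix mouse expression arrays. The authors deposited a linear intensity per probe set and array, made with Affymetrix Expression Console per the submitters' processing notes; the sources used here name no summary method, version or scaling. Signal over background and the small number of arrays limit precision.

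The deposited table held 45101 probe sets, 64 of them controls. The platform annotation gave 34958 of them 1 symbol, 932 several and 9211 none. Intensities were put on the log2 scale after adding 16, without further normalization. Genes above the array's median on at least 2 arrays were kept. One limma fit (lmFit and eBayes, version 3.58.1, R 4.3.3) took all 10 arrays, with 5 residual and 4.09 prior degrees of freedom and no replicate block. Tests were two-sided, with Benjamini-Hochberg adjustment over all genes and calls at an adjusted p under 0.05. Every p in the text is from these fits. An exact permutation test of 2 against 2 arrays cannot go below p = 0.333, so none was run. The fit was tested on simulated data.

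The members and lists were chosen with earlier results of these data known. Any member could be named; of the pathway lists, called genes and up to 3 with the smallest p per comparison, and always Foxp3. Members singled out for a gap between replicates or a group at the edge of all arrays were chosen after their values were seen. So were the B cell markers Cd79a and Ms4a1 and the named myeloid markers. Promoter sequences are from RefSeq on GRCm38.p6. Alternatives were pseudocounts of 1 and 64, arrays scaled to 1 75th percentile or quantile normalized, a stricter filter or none, probe sets averaged, eBayes with trend and robust options, a replicate block, the compared groups alone and leaving out each array.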

Additional observations from a re-analysis of the deposited data

How the results depend on the processing

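No member was called in any of the 7 comparisons under any alternative run. In the F test over the 5 groups the number of members called was 0, and it ran from 0 to 1 when each array was left out in turn: without scurfy Foxp3 array 1 the test called Mki67 (limma adjusted p = 0.0339), which then compares the low array 2 alone with the other groups. The 17 member differences with an unadjusted p under 0.05 in a comparison kept their direction and stayed uncalled throughout. Bub1b in Treg against Tconv mock came nearest, with a smallest adjusted p of 0.0706. Cdk2 in Tconv Foxp3 against Tconv mock ran from 0.52 to 1.06, with adjusted p from 0.128 to 0.992.

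The medians moved with the scaling, whose cause was not tested. The S phase median was 0.0549 after quantile normalization and -0.10 at a common 75th percentile in Treg against Tconv mock, 0.0099 and -0.11 in scurfy mock against Tconv mock, 0.39 and 0.33 in Tconv Foxp3 against Tconv mock, and -0.27 and -0.17 in the difference of the label effects. The mitosis median at the common percentile was -0.51, -0.19, 0.0548 and -0.0749 in the same comparisons, and -0.0804 after quantile normalization in the last.

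Leaving out each array in turn gave S phase medians of 0.0118 to 0.27 in scurfy mock against Tconv mock and, with the extremes at scurfy Foxp3 array 1 or 2 left out, -0.23 to 0.38 in scurfy Foxp3 against scurfy mock, -0.18 to 0.36 in scurfy Foxp3 against Treg and -0.80 to -0.30 in the difference of the label effects. The mitosis medians of those 3 ran from -0.28 to 0.30, -0.068 to 0.56 and -0.65 to -0.11.

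Genes called over all alternatives ran from 17 to 215 in Treg against Tconv mock, 1 to 233 in scurfy mock against Tconv mock, 0 to 27 in Tconv Foxp3 against Tconv mock, 0 to 50 in scurfy Foxp3 against scurfy mock, 0 to 28 in the difference of the label effects, 0 to 69 in scurfy mock against Treg, 0 to 41 in scurfy Foxp3 against Treg and 61 to 489 in the F test. The labels share only a replicate number between groups, and replicate deviations correlated between groups at -0.172 to 0.185. With the replicate number as a block no member was called, the S phase median stayed at 0.59 in Tconv Foxp3 against Tconv mock, and calls were 81 in Treg against Tconv mock, 42 in scurfy mock against Tconv mock, 7 in Tconv Foxp3 against Tconv mock and 129 in the F test. With 2 arrays a group, the standard error of a member's difference was 0.24 to 0.63 log2 units in Tconv Foxp3 against Tconv mock.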
